A study of Homo sapiens with 3 samples.

Results

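Dual specificity MAP kinase phosphatases were followed through the treatment of H446 cells with 3-bromoascochlorin (BAS). The family was taken by gene symbol as DUSP1, DUSP2, DUSP4, DUSP5, DUSP6, DUSP7, DUSP8, DUSP9, DUSP10 and DUSP16. All 10 symbols were listed, among 16793 in all. H446 is a line derived from a human small cell lung cancer, and BAS is a brominated relative of the fungal metabolite ascochlorin. Cells received vehicle alone, BAS at 5 µM or BAS at 10 µM, in each case for 48 h, and each group has 1 library. The title of the study names the MAPK pathway as the route of an antitumor effect, and the question addressed here is how the genes that switch MAP kinases off stood at each dose. What the vehicle was is not stated in the labels, a single cell line was used, and RNA levels measure neither the phosphatase proteins nor the kinases they act on.

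MAP kinases are active only while both a threonine and a tyrosine in their activation loop carry phosphate, and the dual specificity MAP kinase phosphatases remove both. Their substrates are ERK, which answers growth factor signals through RAS, RAF and MEK, and the stress kinases JNK and p38. The family falls into 3 subfamilies. The nuclear inducible enzymes (DUSP1, DUSP2, DUSP4 and DUSP5) are switched on within minutes to hours by the signals they later end. The cytosolic enzymes (DUSP6, DUSP7 and DUSP9) prefer ERK. DUSP8, DUSP10 and DUSP16 prefer JNK and p38.

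Expression was deposited as FPKM, sequenced fragments scaled to gene length and library size, which allows levels of genes of different length to be set side by side. The values summed to 487923 to 507342 FPKM per library, and since the files hold no counts the depth and the counting error are unknown. Differences were taken on the log2(FPKM + 1) scale, where a gene was called at a difference of at least 1 (2-fold), and 11512 genes were compared, those averaging 1 FPKM or more across the libraries. All 10 phosphatase genes passed that filter. With 1 library per group no difference has a replicate check, no test was possible and no p-value is given, so neighbouring values cannot be told apart from variation between cultures. The value columns of the BAS libraries are headed with the codes ASB85 and ASB810, and the doses come from the sample labels. Over the vehicle, 5 µM and 10 µM libraries the neuroendocrine transcription factor gene NEUROD1 measured 104.96, 93.15 and 91.62 FPKM and INSM1 72.85, 81.79 and 95.14 FPKM, both marks of neuroendocrine small cell lung cancer. The T cell gene CD3E was not listed, and PTPRC, the pan-leukocyte marker, was at 0.92 to 1.09 FPKM. The 12 listed markers of small cell lung cancer and neuroendocrine cells summed to 507.0, 541.3 and 605.5 FPKM in the vehicle, 5 µM and 10 µM libraries. Within that list UCHL1 measured 82.21, 131.19 and 176.51 FPKM, POU4F1 101.29, 69.87 and 65.66 FPKM and SYP 17.30, 12.77 and 13.25 FPKM in that order, and POU2F3 and YAP1, which mark the subtypes that are not neuroendocrine, were at 0.07 FPKM or less. The same libraries gave sums for the epithelial markers EPCAM, KRT8 and KRT18 of 7.88, 1.75 and 2.15 FPKM, and for the 4 listed of 6 blood and immune markers of 1.44 to 2.27 FPKM over the libraries. Some markers of other cell types were high in all libraries: the endothelial cadherin gene CDH5 at 51.99 to 57.56 FPKM, with PECAM1 and VWF below 1 FPKM, and the fibroblast collagen genes COL1A1 at 63.57 to 98.52 FPKM and COL1A2 at 370.87 to 412.40 FPKM, with DCN below 1 FPKM. The 3 endothelial markers summed to 58.12, 56.28 and 52.46 FPKM over the vehicle, 5 µM and 10 µM libraries and the 3 fibroblast markers to 453.3, 498.6 and 469.6 FPKM. Their part in the results was not tested.

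In the vehicle library the cytosolic ERK-selective genes held most of the family's transcripts. DUSP6 was highest at 41.64 FPKM, above 83.3% of the genes compared, and DUSP7 was next at 38.31 FPKM. The order then ran DUSP16, DUSP1, DUSP2, DUSP4, DUSP5, DUSP10 and DUSP8, between 12.63 and 3.12 FPKM, and ended with DUSP9 at 1.45 FPKM. Added together, the 10 genes came to 131.4 FPKM in the vehicle library, 130.2 in the 5 µM library and 141.0 in the 10 µM library. The sum at 10 µM was thus 1.07 times that of vehicle, while its split between subfamilies differed more. In RNA from a whole culture, fewer or more cells expressing a gene and less or more of its RNA per cell cannot be told apart. The cytosolic genes made up 62.0%, 51.4% and 44.1% of the sum over the vehicle, 5 µM and 10 µM libraries. The nuclear inducible genes made up 22.7%, 30.0% and 37.3% of it. The JNK/p38-selective genes made up 15.3%, 18.6% and 18.6% in the same order of libraries.

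**Figure D1:**
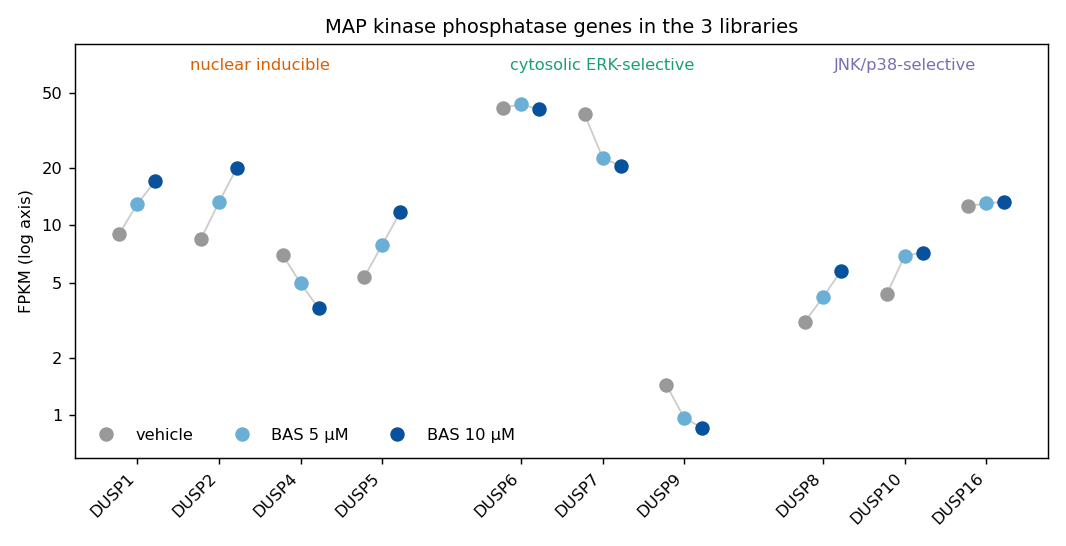
FPKM of each of the 10 phosphatase genes (log axis) in the vehicle, 5 µM and 10 µM libraries, 1 point per library, grouped by subfamily. DUSP1, DUSP2, DUSP5 and DUSP8 climb with dose, and DUSP4, DUSP7 and DUSP9 descend. DUSP10 is higher in both BAS libraries, at nearly the same level in each (6.92 and 7.19 FPKM). DUSP6 and DUSP16 stay within 40.82 to 43.28 FPKM and 12.63 to 13.30 FPKM.

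**Figure D2:**
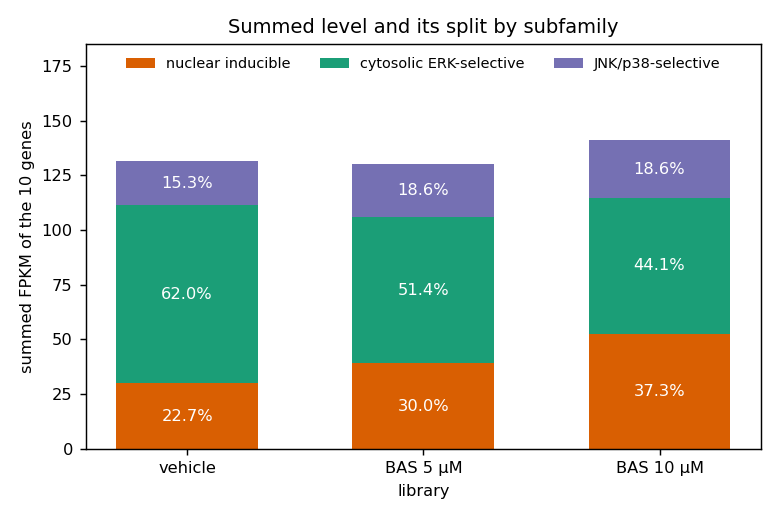
Summed FPKM of the 10 genes in each library, split by subfamily, with each subfamily's percent of the sum written in its segment. The total lies between 130.2 and 141.0 FPKM, while the nuclear inducible segment grows to 37.3% at 10 µM, against 22.7% with vehicle.

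Promoters are shown for DUSP1 and DUSP2, nuclear inducible genes that were higher in the BAS libraries, for DUSP8, a JNK/p38-selective gene that was also higher, and for DUSP7, the abundant gene that was lower. Each sequence is the 250 bases before the start of the gene, from RefSeq on build GRCh38.p14, minus strand, and the sites in capitals are matches to the cAMP response element (CRE, TGACGTCA) or to the TATA box (TATAAA). The windows are chr5:172771196-172771445 for DUSP1, chr2:96145441-96145690 for DUSP2, chr11:1572272-1572521 for DUSP8 and chr3:52056572-52056821 for DUSP7.
DUSP1: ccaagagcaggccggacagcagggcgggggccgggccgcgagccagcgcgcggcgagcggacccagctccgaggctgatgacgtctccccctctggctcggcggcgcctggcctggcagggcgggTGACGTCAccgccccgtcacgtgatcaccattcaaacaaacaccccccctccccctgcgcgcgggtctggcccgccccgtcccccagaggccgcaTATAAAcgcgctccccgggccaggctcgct
DUSP2: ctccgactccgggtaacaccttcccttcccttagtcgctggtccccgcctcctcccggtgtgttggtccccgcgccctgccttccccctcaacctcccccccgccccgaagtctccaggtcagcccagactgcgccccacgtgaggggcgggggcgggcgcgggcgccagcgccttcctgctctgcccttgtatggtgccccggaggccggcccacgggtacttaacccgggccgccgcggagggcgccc
DUSP8: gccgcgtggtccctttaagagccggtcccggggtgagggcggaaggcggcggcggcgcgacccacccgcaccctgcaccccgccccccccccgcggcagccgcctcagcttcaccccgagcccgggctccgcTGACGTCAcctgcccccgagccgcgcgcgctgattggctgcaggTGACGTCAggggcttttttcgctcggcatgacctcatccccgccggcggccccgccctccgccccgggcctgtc
DUSP7: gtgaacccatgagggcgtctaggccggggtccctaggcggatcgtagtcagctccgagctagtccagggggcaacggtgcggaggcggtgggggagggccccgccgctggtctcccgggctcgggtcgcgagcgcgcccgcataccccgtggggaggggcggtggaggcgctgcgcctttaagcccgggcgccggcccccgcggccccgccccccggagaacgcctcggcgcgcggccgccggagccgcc

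The CRE, the site bound by CREB and ATF family factors, occurred once in the DUSP1 window, starting 125 bases before the gene, and 2 times in the DUSP8 window, starting 118 and 74 bases before the gene. The other 6 genes searched had none, among them DUSP2 and DUSP10, which were also higher in the BAS libraries. It was found in 1.65% of the 35116 promoter windows of the same length in the table. Both strands were searched, and as the CRE reads the same on both, each site counts once. DUSP1 also held a TATA box 30 bases before its start, a match that 10.7% of all windows have. The windows of DUSP2 and DUSP7 held neither, but carried 3 and 2 GC boxes (GGGCGG on either strand), a motif present in 42.6% of all windows, and DUSP1 and DUSP8 carried 4 each. The GC boxes of DUSP1 lie on both sides of its CRE without overlapping it. Of the 10 genes, 8 were searched. The nuclear inducible genes DUSP4 and DUSP5 were not, so the motifs cannot be compared over that whole subfamily. Windows on chromosome 8 were left out of the search among members, and DUSP5 had no window. None of the windows searched, the second starts of DUSP9 and DUSP10 included, matched the AP-1 site (TGANTCA, 6.57% of all windows), the C/EBP-ATF composite site (TGATGNAA, 3.14%), the ETS site (CCGGAAG, 8.52%) or the CArG box of serum response factor (1.16%). A match in these letters is a description of the sequence and not evidence of binding.

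Among the nuclear inducible genes, 3 were higher with BAS and 1 was lower. DUSP2 (PAC1), an enzyme that acts on ERK and was first known from activated lymphocytes, stood at 8.49 FPKM in the vehicle library, 13.23 in the 5 µM library and 20.10 in the 10 µM library. The 10 µM level was 2.37 times that of vehicle, a log2 difference of 1.15, and 0.773% of the genes compared had a higher difference. DUSP2 was the single family member called 2-fold higher at 10 µM, 1 of 10, against a background of 1.31% of all genes compared. By level it ranked 3 of 10 at 10 µM and 5 of 10 with vehicle.

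DUSP5 (HVH3), a nuclear enzyme specific for ERK, was at 5.35 FPKM in the vehicle library, 7.91 in the 5 µM library and 11.69 in the 10 µM library. Its plain ratio at 10 µM against vehicle was 2.19, but its log2 difference of 0.999 lay just under the limit, and with a pseudocount of 0.5 it was 1.06. DUSP1 (MKP1), which acts on p38, JNK and ERK and is an immediate early gene of the stress response, was at 9.05 FPKM in the vehicle library, 12.96 in the 5 µM library and 17.11 in the 10 µM library. That was 1.89 times vehicle at 10 µM (log2 difference 0.85). In each of these 3 genes the step between the doses was not far from the step between vehicle and 5 µM. The log2 differences of 10 µM against 5 µM were 0.57 for DUSP2, 0.51 for DUSP5 and 0.38 for DUSP1, beside 0.58, 0.49 and 0.47 for 5 µM against vehicle.

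DUSP4 (MKP2), the remaining nuclear enzyme and a common transcriptional readout of ERK activity, went the other way. It stood at 6.99 FPKM in the vehicle library, 4.96 in the 5 µM library and 3.67 in the 10 µM library. The 10 µM level was 0.525 times that of vehicle (log2 difference −0.77), and 1.53% of the genes compared had a lower difference. DUSP2 and DUSP4 moved apart, and the ratio of DUSP2 to DUSP4 was 1.21, 2.67 and 5.48 over the vehicle, 5 µM and 10 µM libraries. By level DUSP4 ranked 9 of 10 at 10 µM and 6 of 10 with vehicle.

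In the cytosolic ERK-selective subfamily the 2 abundant members parted. DUSP6 (MKP3), the main negative feedback phosphatase of ERK and itself induced by ERK signalling, stood at 41.64 FPKM in the vehicle library, 43.28 in the 5 µM library and 40.82 in the 10 µM library. Its log2 differences were 0.05 at 5 µM and −0.03 at 10 µM against vehicle, close to the medians over all genes of 0.02 and 0.05, and the sign at 5 µM turned negative with rescaling to a common total (−0.00056) and with quantile normalization (−0.0049). DUSP6 is overlapped by the antisense gene AC024909.2, in which 36.4% of the 50-base sequences of DUSP6 also occur by GENCODE 29, and since strand use in counting is not given, reads of the 2 genes cannot be told apart.

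DUSP7 (MKPX), a close relative of DUSP6 that also acts on ERK, was at 38.31 FPKM in the vehicle library, 22.72 in the 5 µM library and 20.47 in the 10 µM library. It was thus almost level with DUSP6 with vehicle and well below it in the BAS libraries, with ratios of DUSP7 to DUSP6 of 0.920, 0.525 and 0.501. Most of the difference was present at 5 µM, where the log2 difference against vehicle was −0.73 and 0.756% of the genes compared lay lower, and 10 µM against 5 µM gave −0.14. At 10 µM against vehicle the difference was −0.87, or 0.534 times vehicle. In FPKM the difference from vehicle was −17.84 for DUSP7, the largest of the 10 genes at 10 µM, and 11.61 for DUSP2. DUSP9 (MKP4), known from placenta and insulin-sensitive tissues, was at 1.45 FPKM in the vehicle library, 0.97 in the 5 µM library and 0.86 in the 10 µM library, levels near the filter at which a pseudocount of 1 shrinks its differences to −0.31 and −0.40.

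The JNK/p38-selective genes were above vehicle, by unequal amounts. DUSP8 (HVH-5), best known from brain and heart as a JNK and p38 phosphatase, stood at 3.12 FPKM in the vehicle library, 4.19 in the 5 µM library and 5.75 in the 10 µM library, a ratio of 1.84 and a log2 difference of 0.71 at 10 µM against vehicle. Of its 50-base sequences, 1.96% also occur in the pseudogenes DUSP8P3, DUSP8P4 and DUSP8P5, while the members other than DUSP6 and DUSP8 shared none with another gene. DUSP10 (MKP5), a regulator of JNK and p38 in stress and immunity, was at 4.33 FPKM in the vehicle library, 6.92 in the 5 µM library and 7.19 in the 10 µM library. Nearly all of its difference was present at 5 µM, with log2 differences of 0.57 at 5 µM and 0.62 at 10 µM against vehicle and 0.05 between the doses. DUSP16 (MKP7), which shuttles between nucleus and cytoplasm and acts mainly on JNK, was nearly level, with 12.63, 13.05 and 13.30 FPKM over the vehicle, 5 µM and 10 µM libraries. Its log2 difference of 0.04 at 5 µM became −0.0084 when the libraries were rescaled to a common total.

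Set side by side at 10 µM against vehicle, the nuclear inducible genes had a median log2 difference of 0.92 (range −0.77 to 1.15), the JNK/p38-selective genes of 0.62 (0.07 to 0.71) and the cytosolic ERK-selective genes of −0.40 (−0.87 to −0.03). The cytosolic median is the value of DUSP9, which averaged 1.09 FPKM and passed the filter only through its vehicle level, and it was −0.69 with a pseudocount of 0.1. The nuclear inducible value was 0.56 as a mean, since DUSP4 lay on the other side, and the JNK/p38-selective median was 0.34 with the filter at 5 FPKM, which leaves out DUSP8. The median over all 10 was 0.34, and over all genes compared 0.05. Above vehicle were 6 of 10, beside 56.5% of all genes compared, and below it 4 of 10, beside 43.3%. The 4 include DUSP9, whose place there is a description only, given how it passed the filter. No family member was called lower at 10 µM, where 0.643% of all genes compared were. The members nearest to that lower limit were DUSP7 and DUSP4. With a limit of 1.5-fold in place of 2-fold, 5 of 10 (DUSP1, DUSP2, DUSP5, DUSP8 and DUSP10) were called higher, against 6.04% of all genes compared, and 2 of 10 (DUSP4 and DUSP7) lower, against 3.44%.

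At 5 µM against vehicle no member was called in either direction, where 0.539% of all genes compared were called higher and 0.208% lower. The subfamily medians were 0.48 for the nuclear inducible, 0.33 for the JNK/p38-selective and −0.31 for the cytosolic genes, beside 0.19 over all 10 and 0.02 over all genes compared. Here too the cytosolic median is the value of DUSP9. Above vehicle were 7 of 10, beside 53.2% of all genes compared, and below it 3 of 10, beside 46.6%. The 7 include DUSP6 and DUSP16, which turned negative with rescaling to a common total (−0.00056 and −0.0084). The 3 include DUSP9, which passed the filter only through its vehicle level. With the 1.5-fold limit DUSP7 was called lower, 1 of 10 against 1.60% of all genes compared, and none higher, against 3.01%. The 5 µM and 10 µM comparisons share the vehicle library, so their values are not independent of each other.

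Between the doses no member was called at 10 µM against 5 µM, where 0.0434% of all genes compared were called higher and 0.0434% lower. DUSP2 was highest of the 10 at 0.57, with 0.469% of the genes compared above it, followed by DUSP5 at 0.51, and DUSP4 was lowest at −0.35. The subfamily medians were 0.44 for the nuclear inducible, 0.05 for the JNK/p38-selective and −0.08 for the cytosolic genes (again the value of DUSP9), with 0.04 over all genes compared. With the limit at 1.5-fold none was called either, where 0.434% of all genes compared were called higher and 0.408% lower. At 10 µM 6 of 10 genes stood above 5 µM, beside 58.6% of all genes compared, and 4 of 10 below it, beside 41.0%. In FPKM 6 of 10 genes stood in rising order over vehicle, 5 µM and 10 µM, beside 32.9% of all genes compared. DUSP4, DUSP7 and DUSP9, 3 of 10, stood in falling order, beside 20.8%. DUSP9 passed the filter only through its vehicle level, so its falling order is a description only. Both sets of 6 include DUSP10 and DUSP16, whose small steps depend on the scaling. Between the doses DUSP16 was −0.01 with median-ratio scaling and −0.0024 with quantile normalization, where DUSP10 was 0. Rescaling to a common total put DUSP16 at −0.0084 at 5 µM against vehicle.

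**Figure D3:**
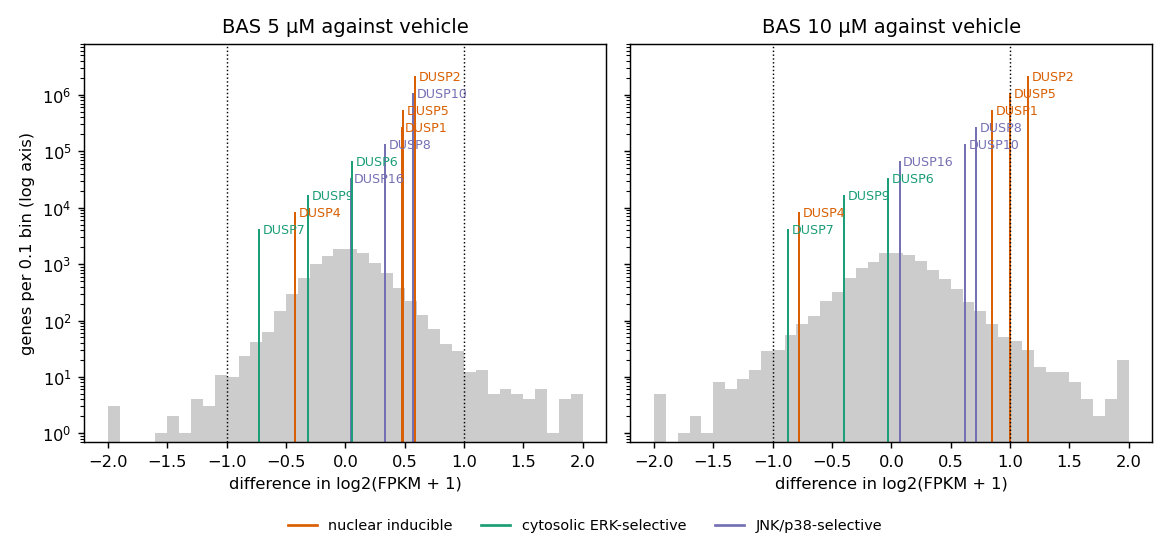
Differences in log2(FPKM + 1) of the 11512 genes compared (grey, genes per bin on a log axis, values past −2 or 2 placed in the end bins) for 5 µM and 10 µM against vehicle, with a coloured line at each phosphatase gene, its height serving only to place the label, and dotted lines at −1 and 1. At 10 µM DUSP2 lies past the upper dotted line at 1.15 and DUSP5 on it, while DUSP7 at −0.87 is the lowest member.

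The MAP kinases themselves, the substrates of the family, lay on both sides of vehicle. Of the 9 genes, 7 passed the filter, with 3 above and 4 below vehicle at 10 µM, 0 called and a median of −0.002. Over the vehicle, 5 µM and 10 µM libraries, MAPK3 (ERK1) measured 29.40, 27.23 and 24.20 FPKM. MAPK9 (JNK2), the substrate with the largest difference, measured 14, 16.89 and 18.65 FPKM. MAPK8 (JNK1) measured 12.30, 10.44 and 10.98 FPKM, and the p38α gene MAPK14 measured 19.20, 18.50 and 19.76 FPKM. Among the 6 MAP kinase kinase genes, 4 were above and 2 below vehicle at 10 µM, with a median of 0.15. MAP2K6, an activating kinase of p38, was the 1 called, at 2.89 FPKM at 10 µM against 7.45 FPKM with vehicle (log2 difference −1.12). Of all genes compared, 56.5% were above and 43.3% below vehicle at 10 µM. The shares called were 1.31% higher and 0.643% lower, and the median was 0.05. At 5 µM the MAP kinases again had 3 above and 4 below vehicle and the MAP kinase kinases 4 above and 2 below, with 0 called. The shares of all genes compared were then 53.2% above, 46.6% below, 0.539% called higher and 0.208% called lower.

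Other genes that ERK induces as feedback were also split. Of 13 genes, 7 were above and 6 below vehicle at 10 µM, 0 were called, and the median was 0.12. All genes compared were split much alike, with 56.5% above, 43.3% below, 1.31% called higher, 0.643% called lower and a median of 0.05. At 5 µM 6 were above and 7 below, with 0 called and a median of −0.01. All genes compared then had 53.2% above, 46.6% below, 0.539% called higher, 0.208% called lower and a median of 0.02. IER3, an early response gene that sustains ERK phosphorylation, was furthest above, at 11.38 FPKM at 10 µM against 6.01 FPKM with vehicle. SPRY4, an inhibitor of receptor signalling to RAS, was at 4.87 FPKM at 10 µM against 2.81 FPKM with vehicle, and the ETS factor gene ETV4 at 14.14 against 8.90 FPKM. PHLDA1, an early response gene, was furthest below, at 18.51 FPKM at 10 µM against 30.67 FPKM with vehicle.

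Immediate early transcription factor genes, which share with the nuclear phosphatases a rapid induction by growth factors and stress, lay mostly above vehicle. Of 15, 12 passed the filter, and at 10 µM 11 were above and 1 below vehicle. Called higher were 3 (ATF3, EGR1 and FOS), 0 were called lower and the median was 0.67. Over all genes compared 56.5% were above and 43.3% below vehicle. Of them 1.31% were called higher and 0.643% lower, and the median was 0.05. ATF3, a stress-induced repressor, stood at 24.41 FPKM at 10 µM against 7.92 FPKM with vehicle, and EGR1 at 10.49 against 4.19 FPKM. FOS, the AP-1 subunit gene, was at 2.44 FPKM at 10 µM against 0.33 FPKM with vehicle. It passed the filter only through the 10 µM library, so its call is given as a description only. The counts and medians of this list at both doses include FOS and share that limit. JUND, a partner of FOS, was at 119.8 FPKM at 10 µM against 59.88 FPKM with vehicle. At 5 µM 10 of the 12 were above and 2 below vehicle, with 1 called higher (ATF3) and a median of 0.33, beside 53.2% above vehicle and 0.539% called higher over all genes compared.

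Genes of factors known to act on the promoters or the messenger RNAs of nuclear phosphatases were compared as well. Of 9, 7 were above and 2 below vehicle at 10 µM, 0 were called, and the median was 0.24. All genes compared had 56.5% above, 43.3% below, 1.31% called higher, 0.643% called lower and a median of 0.05. At 5 µM the counts were again 7 and 2, with 0 called and a median of 0.09. All genes compared then had 53.2% above, 46.6% below, 0.539% called higher, 0.208% called lower and a median of 0.02. E2F1 was at 35.79 FPKM at 10 µM against 24.31 FPKM with vehicle. ZFP36L1, a protein that speeds the decay of messages with AU-rich elements, was at 63.61 FPKM at 10 µM against 44.02 FPKM with vehicle, and its relative ZFP36 at 4.99 against 3.81 FPKM. CREB1, which binds the CRE, was at 6.99 FPKM at 10 µM against 8.11 FPKM with vehicle.

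**Figure D4:**
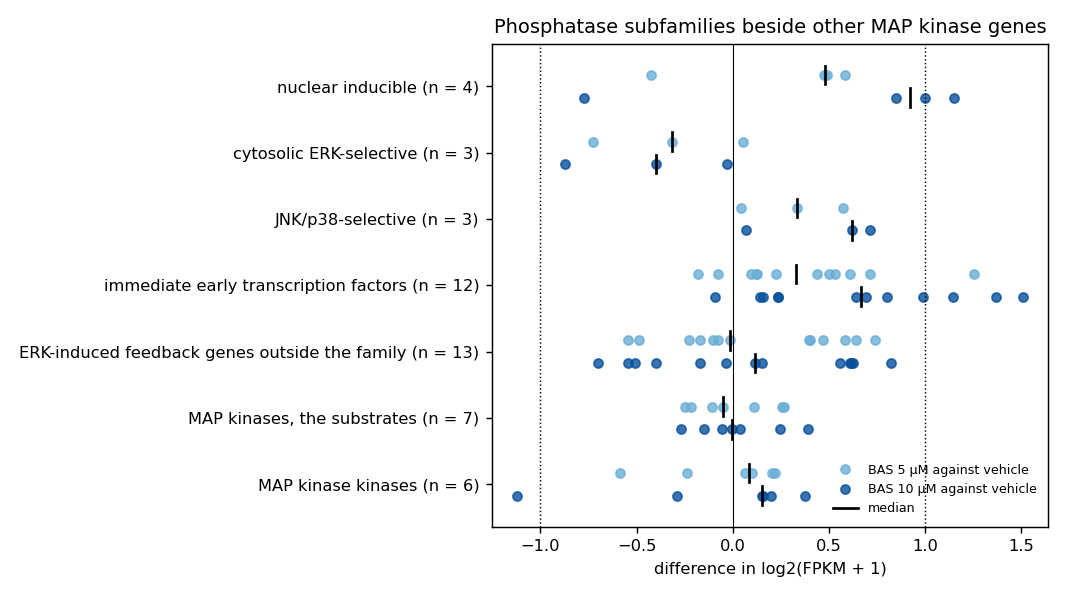
Differences in log2(FPKM + 1) against vehicle for the 3 phosphatase subfamilies and 4 other gene lists, 1 point per gene past the filter, the 5 µM row above the 10 µM row, black bars at the medians and dotted lines at −1 and 1. At 10 µM the medians are 0.92 for the nuclear inducible genes and 0.67 for the immediate early factors, against −0.40 for the cytosolic phosphatases (the value of the low gene DUSP9) and −0.002 for the MAP kinases. The immediate early factors include FOS, which passed the filter only through the 10 µM library.

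The genes most like each moving member were found by the distance between their log2 differences at 5 µM and 10 µM against vehicle, over 3 libraries, among genes within 4-fold of its mean level. For DUSP1 they were CSRNP2, HEXIM2 and HAPLN1, at distances of 0.020, 0.024 and 0.032. CSRNP2 was close to it in level too, measuring 9.11, 12.97 and 17.46 FPKM over the vehicle, 5 µM and 10 µM libraries. For DUSP2 they were NANOS1, C11orf96 and SGCD, at 0.052 to 0.075, and for DUSP5 GPR89B, AGFG2 and CYTIP, at 0.066 to 0.071. Those of DUSP4 were CLCN5, EXOC4 and KALRN, at 0.008 to 0.043. RASA1, the RAS GTPase activating protein gene, was nearest to DUSP7 at 0.018, with 27.20, 16.14 and 14.56 FPKM, followed by INTS3 and HNRNPH2. For DUSP8 they were ZNF789, TMEFF1 and SMURF2 and for DUSP10 IGFBP7, ITM2C and GAA. Between 6900 and 8161 genes were compared for each member, and with 3 libraries many genes share a pattern.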

How the data were processed

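H446 RNA was read on an MGISEQ2000 in single-end runs of 50 bases, per the labels' protocols, with 1 library per group. The submitters' processing notes list Trim Galore, BWA, Bowtie2, Cufflinks, Cuffdiff and build hg19. Versions, the role of the tools, annotation, strand and scaling were not given in the sources used here. Values were deposited by the authors as FPKM with 2 decimals, and depth is unknown. Each file held 16795 rows, and the 2 symbols listed more than 1 time, none of them a phosphatase gene, were summed. Differences used log2(FPKM + 1), a scale that understates changes of low genes, and ratios in the text are plain FPKM ratios. The steps were tested on simulated data.

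Members, subfamilies, gene lists and limits were chosen with earlier results of these data known. Named genes are all members, up to 4 genes per list that differed most at 10 µM, the main ERK, JNK and p38 genes, and the 3 nearest genes of each member that differed by at least 0.5 at 10 µM. Some genes that this rule names are not reported here. CREB1, STYX, the named markers and the 4 promoters shown were chosen after values were seen. Promoters came from RefSeq (GRCh38.p14), transcripts and overlaps from GENCODE 29 by symbol. Alternatives were pseudocounts of 0.1 or 0.5, filtering at 5 FPKM or not at all, a limit of 1.5-fold, 3 scalings, means, and, added after seeing the data, removal of GC and length trends. Python 3.11.15, numpy 2.4.6, pandas 2.3.3 and matplotlib 3.10.9 were used.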

Additional observations from a re-analysis of the deposited data

How the results depend on the processing

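No paired analysis was possible because each group has 1 library, and for the same reason no library could be left out. Of the 10 members at 10 µM against vehicle, 2 were called higher in place of 1 with either pseudocount, 0.1 or 0.5. The second was DUSP5 (1.11 and 1.06). Over all genes compared the number called higher rose as well, to 273 and 207 from 151. With the 1.5-fold limit the counts at 10 µM were 5 higher and 2 lower, beside 6.04% and 3.44% of all genes compared. At 5 µM 1 was lower, beside 1.60%. The cytosolic median was −0.69 at 10 µM and −0.53 at 5 µM with a pseudocount of 0.1, through DUSP9, and −0.55 at 10 µM with GC and length trends removed, an alternative chosen after seeing the data that covered 98.7% of the genes compared. The JNK/p38-selective median at 10 µM was 0.34 with the filter at 5 FPKM, which leaves out DUSP8, and 0.47 as a mean. As means, the nuclear inducible genes gave 0.56 at 10 µM, 0.28 at 5 µM and 0.28 between the doses, as DUSP4 lies on the other side. The remaining counts of members called kept within 1.5 times of those reported and the remaining medians within 0.148, the robust spread of all genes between the doses. Counts of genes above or below another library, and of genes in rising or falling order, were not recomputed under the alternatives. DUSP16 between the doses (0.03) turned to −0.01 with median-ratio scaling and to −0.0024 with quantile normalization. The filter at 5 FPKM also left out DUSP9. Unknown depth limits the low levels of DUSP9 most.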

Other observations

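The atypical dual specificity phosphatases, small relatives of the family without its MAP kinase docking domain, lay mostly above vehicle with BAS. Of 16 genes, 14 were listed and 11 passed the filter. At 10 µM 10 were above and 1 below vehicle, with 0 called and a median of 0.28. Over all genes compared 56.5% were above and 43.3% below vehicle, 1.31% were called higher, 0.643% were called lower and the median was 0.05. DUSP14 stood at 36.96 FPKM at 10 µM against 23.84 FPKM with vehicle, DUSP23 at 32.61 against 22.03 FPKM, and DUSP3 (VHR), which acts on ERK and JNK, at 27.74 against 19.03 FPKM. The member below vehicle was STYX, a catalytically dead relative, at 15.40 FPKM at 10 µM against 15.99 FPKM with vehicle. Each of DUSP3, DUSP14 and DUSP23 had a log2 difference between 0.52 and 0.61, under the 2-fold limit.

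Phosphatases of other families that act on MAP kinases lay on both sides of vehicle at 10 µM, with 3 of 6 above, 3 below, 0 called and a median of 0.01. All genes compared had 56.5% above, 43.3% below, 1.31% called higher, 0.643% called lower and a median of 0.05. The tyrosine phosphatase gene PTPRR was furthest above, at 2.11 FPKM at 10 µM against 1.07 FPKM with vehicle, and PPP2CA, a catalytic subunit gene of protein phosphatase 2A, furthest below, at 79.52 against 98.72 FPKM.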
